A study of Homo sapiens with 6 samples.

Results

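Glycolysis, the pentose phosphate pathway and the tricarboxylic acid (TCA) cycle were examined at the RNA level through 47 genes that encode their enzymes and transporters. The members are a list of named genes, drawn up with earlier results of these data known, and all 47 were found among the 12486 genes of the deposited table once its gene identifiers had been matched to symbols. They comprised 23 genes of glycolysis with its glucose and lactate transporters, 6 of the pentose phosphate pathway, and 18 of pyruvate oxidation and the TCA cycle. Of the 18, 4 encode subunits of the pyruvate dehydrogenase complex. The 18 include IDH1 and MDH1, the cytosolic forms of cycle enzymes.

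RNA-seq had been carried out on K562 cells, a human chronic myeloid leukemia line that carries the Bcr-Abl fusion. The control group, sh-luc, stably expressed an shRNA against luciferase, and the knockdown group, sh-IUR1, stably expressed an shRNA against the long noncoding RNA lncRNA-IUR1, which the sample labels call lncRNA-up91. Each group had 3 libraries, of which the first carries no replicate number and the others are r1 and r2, and values are given in that order throughout. The study used a single hairpin sequence against the human lncRNA, and the level of the targeted lncRNA was not analysed here.

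Glycolysis splits glucose into pyruvate in the cytosol and yields ATP and NADH. Pyruvate is either reduced to lactate, which leaves the cell through monocarboxylate transporters, or enters the mitochondrion, where the pyruvate dehydrogenase complex makes the acetyl-CoA that feeds the TCA cycle. The pentose phosphate pathway branches off at glucose 6-phosphate and supplies NADPH and ribose 5-phosphate. Leukemia cells, like other proliferating cells, are known for high glucose uptake and lactate output. Many glycolytic genes are induced by the hypoxia-inducible factors (HIF), whose binding sites often hold the core letters ACGTG.

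The letters in front of 3 of the genes are shown. ENO2 and PGLS had the smallest p-values among the members, and LDHA has the most matches to ACGTG of these 3. Each is the 250 bases before a transcription start, from RefSeq on GRCh38.p14, on the plus strand. Capitals mark ACGTG on either strand (read as CACGT on the other strand). CACGTG, the E-box, holds a match on both strands.

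ENO2, chr12:6914330-6914579: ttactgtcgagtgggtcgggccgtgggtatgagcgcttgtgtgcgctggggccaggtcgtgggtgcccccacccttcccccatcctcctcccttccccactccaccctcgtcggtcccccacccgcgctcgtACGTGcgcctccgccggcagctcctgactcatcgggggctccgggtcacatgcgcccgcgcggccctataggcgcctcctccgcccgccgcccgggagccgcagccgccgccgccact
PGLS, chr19:17511399-17511648: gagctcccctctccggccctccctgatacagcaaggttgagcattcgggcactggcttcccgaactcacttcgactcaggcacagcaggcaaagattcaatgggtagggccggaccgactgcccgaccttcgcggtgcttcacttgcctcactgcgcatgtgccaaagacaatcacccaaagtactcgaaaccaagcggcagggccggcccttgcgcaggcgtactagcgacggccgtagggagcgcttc
LDHA, chr11:18394313-18394562: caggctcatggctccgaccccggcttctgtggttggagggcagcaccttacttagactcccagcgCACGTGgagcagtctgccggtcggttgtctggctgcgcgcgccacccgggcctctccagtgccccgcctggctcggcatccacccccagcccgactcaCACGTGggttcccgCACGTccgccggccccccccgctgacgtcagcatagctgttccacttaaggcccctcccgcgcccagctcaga

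The window of ENO2 holds 1 match, that of PGLS holds 0, and the one shown for LDHA holds 5, from 2 E-boxes and 1 further match. A second RefSeq promoter of LDHA, chr11:18396101-18396350, holds 0. RefSeq promoters were matched for 44 members, which have 72 promoters. ACGTG was found in 21 of the 72 (29.2%), against 18.5% of all 35116 RefSeq promoters cut in the same way. By pathway it was found in 16 of 46 promoters of glycolysis genes, in 1 of 6 of pentose phosphate genes and in 4 of 20 of genes of pyruvate oxidation and the TCA cycle. The E-box, which contains ACGTG, was found in 7 of the 72 promoters (9.72%) and in 6.35% of all promoters. Several promoters of a gene can overlap, and a match describes letters only. Other forms of the HIF core were not searched.

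The members were among the more abundant transcripts of these cells. Their median level was 58.5 FPKM (fragments scaled by transcript length and library size), against 10.6 FPKM over all 12276 genes tested, and the median member stood at the 87.2nd percentile. Together they summed to 10695 ± 332 FPKM in sh-luc and 10715 ± 64.1 FPKM in sh-IUR1 (mean ± SD, n = 3), between 1.76% and 1.86% of the summed FPKM of the table in each library. Levels ran from SLC16A3, a lactate exporter with a mean of 0.34 FPKM, to the glyceraldehyde 3-phosphate dehydrogenase GAPDH, with a mean of 2435 FPKM. GAPDH, the enolase ENO1 and the aldolase ALDOA together made up 61.0% to 64.5% of the summed FPKM of the 23 glycolysis genes. For 24 members RefSeq also lists pseudogenes named after them, 65 for GAPDH, 13 for PGAM1 and 6 for LDHA, and how the authors assigned reads between such copies is not given in the sources used here, so their values are uncertain to that extent.

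Among the libraries, the unnumbered sh-luc library and sh-IUR1 r1 stood at opposite ends of the first principal component of all genes, which took 59.3% of the variance, with scores of -19.8 and 13, while the other 4 lay from -3.75 to 4.79.

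None of the 47 genes differed between sh-IUR1 and sh-luc at an adjusted p of 0.05 (limma on log2(FPKM + 1) with Benjamini-Hochberg adjustment over 12276 genes). The same held for the whole table, where 0 genes (0.0%) passed and the smallest adjusted p was 0.930. At an unadjusted p under 0.05 there were 2 members, ENO2 and PGLS, or 4.26% of the 47, against 2.65% of all genes. Without the unnumbered sh-luc library there were 4, ALDOC and PFKFB4 in addition (8.51%, against 1.78% of all genes), and without sh-luc r1 there were 5, SLC2A3, PFKFB4 and PGAM1 in addition (10.6%, against 6.96%). The log2 fold changes of the members, sh-IUR1 over sh-luc, were split evenly, with 23 above 0 and 24 below 0, a median of -0.0042 and a range from -0.12 to 0.24. The median over all genes was 0.019. The 95% intervals of the 47 differences all lay between -0.32 and 0.47.

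In 4 members (ENO2, PGLS, PFKL and HK1) the lowest sh-IUR1 value exceeded the highest sh-luc value, and in 2 members (PDHB and DLAT) the highest sh-IUR1 value was under the lowest sh-luc value. Over all genes tested 4.04% were apart in the higher direction and 3.03% in the lower direction. The 6 members make 12.8% of the 47, against 7.07% of all genes in both directions. With the unnumbered sh-luc library omitted, 7 members (14.9%) were apart against 12.6% of all genes, and ALDOC joined the same 6. Groups that are apart stay apart when a library is left out. With sh-IUR1 r1 omitted there were 9 (19.1%, against 14.2%), the same 6 with PFKFB4, PDHA1 and IDH3G.

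**Figure D1:**
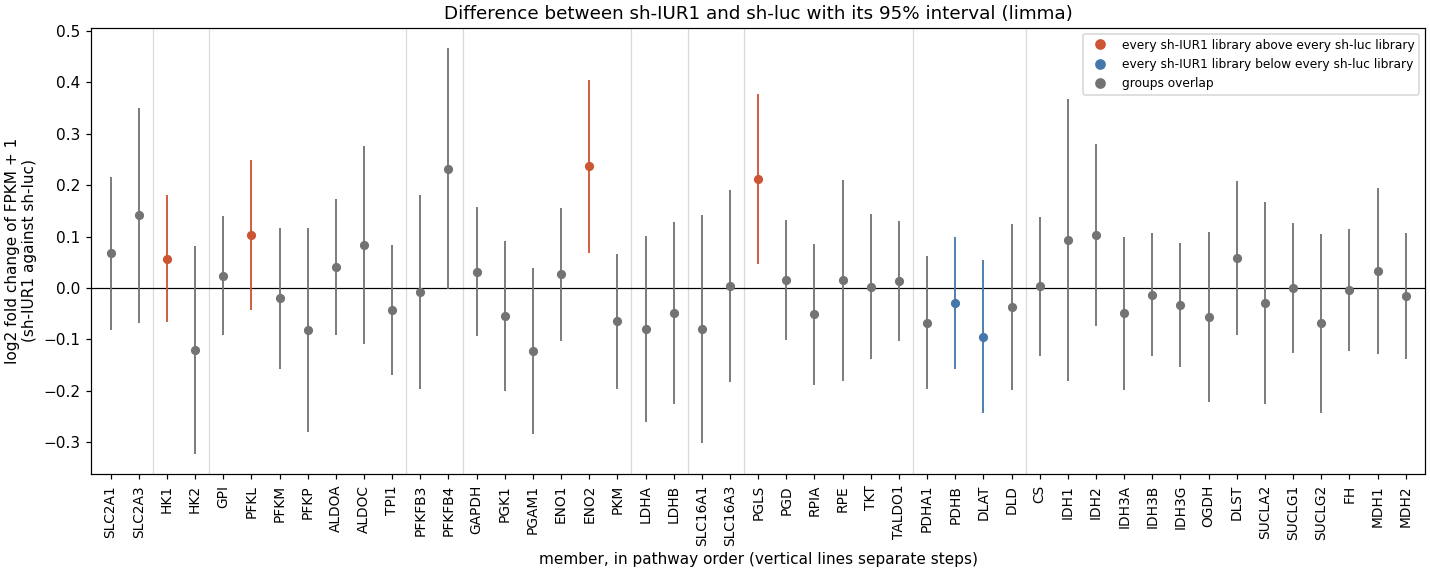
Log2 fold change of FPKM + 1, sh-IUR1 against sh-luc (y axis), for the 47 members (x axis) as points with the 95% interval from limma as bars, n = 3 per group. The intervals of ENO2 and PGLS are the ones that do not cross 0, the 4 members in red and the 2 in blue have groups that do not overlap, and all intervals lie between -0.32 and 0.47.

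Glucose enters K562 cells through the transporters SLC2A1 (GLUT1) and SLC2A3 (GLUT3), which were at nearly the same level per transcript length. SLC2A1 was at 54.8, 55.0 and 61.8 FPKM in sh-luc and 60.8, 61.5 and 57.3 FPKM in sh-IUR1. SLC2A3 was at 44.0, 58.2 and 51.9 FPKM in sh-luc and 55.0, 59.4 and 54.9 FPKM in sh-IUR1. The unnumbered sh-luc library was the lowest of the 6 for both transporters, and the groups overlapped for both. The difference for SLC2A3 did not pass the test (log2 fold change 0.14, SE 0.0939, adjusted p = 0.930), and its log2 fold change was 0.035 with the unnumbered sh-luc library omitted and 0.23 with sh-luc r1 omitted. SLC2A3 has a close paralog, SLC2A14, which could share its reads.

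The hexokinases, which phosphorylate glucose and so hold it in the cell, were mostly HK1. HK1 was at 147, 158 and 159.9 FPKM in sh-luc and 160.3, 161 and 161 FPKM in sh-IUR1. The 3 sh-IUR1 values lay close together and above all sh-luc values, though sh-luc r2 came within 0.37 FPKM of the lowest of them. The difference was small and did not pass (log2 fold change 0.057, SE 0.0551, adjusted p = 0.930). On the log2 scale it came to 0.020 with the unnumbered sh-luc library omitted and to 0.080 with sh-luc r2 omitted. HK2, the inducible hexokinase found in many tumors, was at 14.8, 12.5 and 13.4 FPKM in sh-luc and 11.9, 11.5 and 13.7 FPKM in sh-IUR1. The groups overlapped, and the difference did not pass (log2 fold change -0.12, SE 0.0907, adjusted p = 0.930). The log2 fold change of HK2 was -0.060 with the unnumbered sh-luc library omitted, -0.073 with sh-IUR1 r1 omitted and -0.19 with sh-IUR1 r2 omitted. HK1 thus made up 90.9% to 93.3% of the FPKM of the pair in the 6 libraries.

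Glucose 6-phosphate isomerase, GPI, was among the least variable members, at 131, 128 and 134 FPKM in sh-luc and 131, 134 and 135 FPKM in sh-IUR1. Phosphofructokinase, which commits sugar to glycolysis, was represented by all 3 of its genes. The liver-type PFKL was at 65.8, 73.9 and 74.1 FPKM in sh-luc and 75.7, 79.3 and 74.7 FPKM in sh-IUR1. All 3 sh-IUR1 libraries were above all sh-luc libraries, by 0.53 FPKM between the nearest ones, and the unnumbered sh-luc library was well below the rest. Its mean was 1.07 times that of sh-luc (log2 fold change 0.10, SE 0.0650, adjusted p = 0.930). Omitting the unnumbered sh-luc library brought the log2 fold change of PFKL to 0.047, and omitting sh-IUR1 r1 brought it to 0.077. Omitting sh-luc r1 or sh-luc r2 raised it to 0.13. The muscle-type PFKM was at 23.8, 24.0 and 25.3 FPKM in sh-luc and 23.9, 24.1 and 24.0 FPKM in sh-IUR1, and the platelet-type PFKP at 30.3, 27.6 and 29.7 FPKM in sh-luc and 25.8, 25.5 and 31.7 FPKM in sh-IUR1. Neither differed between groups beyond its spread.

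PFKFB3 and PFKFB4 make and break down fructose 2,6-bisphosphate, the strongest activator of phosphofructokinase. PFKFB3 was at 7.42, 7.70 and 8.35 FPKM in sh-luc and 7.87, 8.33 and 7.15 FPKM in sh-IUR1. PFKFB4 was at 5.24, 5.42 and 4.21 FPKM in sh-luc and 6.07, 5.36 and 6.52 FPKM in sh-IUR1. The groups overlapped for PFKFB4, since sh-luc r1 lay above sh-IUR1 r1. Its ratio of means was 1.21, and it missed the unadjusted threshold with all 6 libraries (log2 fold change 0.23, 95% interval -0.0024 to 0.47, adjusted p = 0.930). Its log2 fold change ranged from 0.14 with sh-luc r2 omitted to 0.30 with sh-IUR1 r1 omitted. The sum of both genes was 12.7, 13.1 and 12.6 in the sh-luc libraries and 13.9, 13.7 and 13.7 in those of sh-IUR1, with no overlap between groups, and this sum was not tested.

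Aldolase splits the sugar bisphosphate that phosphofructokinase makes, and triose phosphate isomerase interconverts the products. ALDOA was at 1023, 941 and 1050.1 FPKM in sh-luc and 1033, 1015 and 1051 FPKM in sh-IUR1, and ALDOC, the brain-type form, at 18.2, 14.9 and 14.9 FPKM in sh-luc and 17.4, 16.9 and 16.6 FPKM in sh-IUR1. TPI1 was at 522, 478 and 522 FPKM in sh-luc and 484, 493 and 499 FPKM in sh-IUR1. For ALDOC and TPI1 the sh-IUR1 values lay inside the range of the sh-luc values, and for ALDOA the highest library of each group was at nearly the same level. The spread of the sh-IUR1 group was smaller for each of the 3, for example 17.6 FPKM against 56.5 FPKM (SD) for ALDOA.

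The steps from glyceraldehyde 3-phosphate to pyruvate held the most abundant members. GAPDH was at 2423, 2322 and 2480.3 FPKM in sh-luc and 2449, 2511 and 2425 FPKM in sh-IUR1, and ENO1, which converts 2-phosphoglycerate to phosphoenolpyruvate, at 1690.2, 1654 and 1816 FPKM in sh-luc and 1759, 1729.8 and 1763 FPKM in sh-IUR1. PGK1, the first ATP-forming enzyme of the pathway, was at 238, 209 and 222 FPKM in sh-luc and 214, 204 and 225 FPKM in sh-IUR1. PKM, the pyruvate kinase gene, was at 225, 209 and 229 FPKM in sh-luc and 206, 208 and 219 FPKM in sh-IUR1, and its M1 and M2 splice forms are not separated in a value per gene. None of these 4 genes had groups that did not overlap. PGAM1, phosphoglycerate mutase, had a log2 fold change about as low as that of HK2, and which of them was lower depended on the pseudocount and the scaling. It was at 248, 211 and 233 FPKM in sh-luc and 211, 199.8 and 224 FPKM in sh-IUR1, with overlapping groups (log2 fold change -0.12, SE 0.0721, adjusted p = 0.930). The log2 fold change of PGAM1 was -0.069 with the unnumbered sh-luc library omitted and -0.19 with sh-luc r1 omitted.

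ENO2, the neuron-type enolase, had the smallest p-value of the members. Its log2 fold change was near that of PFKFB4, which was the larger with a pseudocount of 0.1 (0.27 for both to 2 digits). It was at 7.03, 6.85 and 6.38 FPKM in sh-luc and 8.06, 8.03 and 8.30 FPKM in sh-IUR1. All 3 sh-IUR1 libraries were within 0.27 FPKM of each other, and the lowest of them was 1.0 FPKM above the highest sh-luc library. The means were 6.75 ± 0.336 FPKM in sh-luc and 8.13 ± 0.148 FPKM in sh-IUR1 (SD, n = 3), a ratio of 1.2. The log2 fold change was 0.24 (SE 0.0753, 95% interval 0.068 to 0.40, limma), and the adjusted p over all genes was 0.930. With each library left out in turn it stayed between 0.20 and 0.26, and it stayed under an unadjusted p of 0.05 each time. Of the members, only SLC16A3 and PFKFB4 had a lower mean level.

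Pyruvate is reduced to lactate by LDHA and LDHB, whose products form the tetramers of lactate dehydrogenase. LDHA was at 758, 623 and 637 FPKM in sh-luc and 635, 599 and 672 FPKM in sh-IUR1, and LDHB at 679, 586 and 571 FPKM in sh-luc and 615, 544 and 614 FPKM in sh-IUR1. The unnumbered sh-luc library was the highest and sh-IUR1 r1 the lowest for both, and the other 4 libraries lay between them in both groups. SLC16A1 (MCT1), which carries lactate across the membrane, had the same order, at 61.3, 49.2 and 49.5 FPKM in sh-luc and 50.7, 45.2 and 55.1 FPKM in sh-IUR1. SLC16A3 (MCT4) was among the lowest levels tested, at 0.320, 0.340 and 0.350 FPKM in sh-luc and 0.280, 0.260 and 0.490 FPKM in sh-IUR1. The number of fragments behind such low values was not worked out, and no difference in SLC16A3 was detectable at this level.

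**Figure D2:**
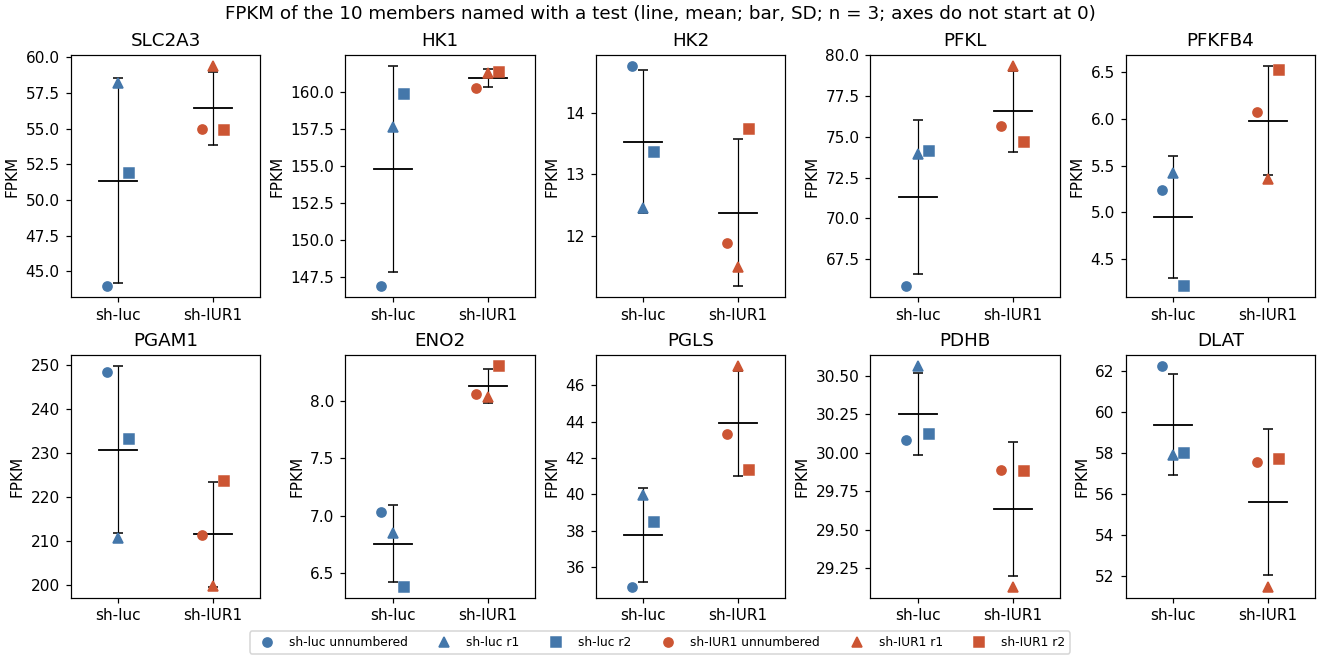
FPKM (y axes, which do not start at 0) of the 10 members printed with a test, by group (x axes), with a symbol for each library, a line at the mean and a bar of 1 SD, n = 3. The groups do not overlap for HK1, PFKL, ENO2, PGLS, PDHB and DLAT, and the gap is widest relative to the level for ENO2, from 7.03 to 8.03 FPKM.

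Among the pentose phosphate members the largest difference was that of PGLS, 6-phosphogluconolactonase, which opens the lactone made in the first, oxidative step. PGLS was at 34.9, 40.0 and 38.5 FPKM in sh-luc and 43.3, 47.1 and 41.4 FPKM in sh-IUR1. The lowest sh-IUR1 library was 1.40 FPKM above the highest sh-luc library, and both groups were spread by several FPKM. The means were 37.8 ± 2.59 FPKM in sh-luc and 43.9 ± 2.89 FPKM in sh-IUR1 (SD, n = 3), a ratio of 1.16, with a log2 fold change of 0.21 (SE 0.0740, 95% interval 0.047 to 0.38, limma adjusted p = 0.930). Its log2 fold change was 0.16 without sh-IUR1 r1, where it no longer passed the unadjusted threshold of 0.05, and also 0.16 without the unnumbered sh-luc library, where it still did. Without sh-luc r1 or without sh-IUR1 r2 it was 0.25.

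The other 5 genes of the pathway had log2 fold changes between -0.051 and 0.015, and their groups overlapped. PGD, which makes NADPH and ribulose 5-phosphate, was at 196, 198 and 205 FPKM in sh-luc and 196, 204 and 205 FPKM in sh-IUR1. The isomerase RPIA and the epimerase RPE, which act on ribulose 5-phosphate, ranged over the libraries from 28.4 to 31.3 FPKM and from 14.8 to 17.7 FPKM. The sugar-rearranging enzymes were much higher, with the transketolase TKT at 257 to 295 FPKM and the transaldolase TALDO1 at 409 to 434 FPKM. The 6 genes summed to 974 ± 28.0 FPKM in sh-luc and 986 ± 25.2 FPKM in sh-IUR1, within the spread of either group.

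The 4 members of the pyruvate dehydrogenase complex had log2 fold changes below 0, from -0.095 to -0.029 with a median of -0.052. Of the 4, 0 passed the test. DLAT, the acetyl-transferring core of the complex, was at 62.2, 57.9 and 58.0 FPKM in sh-luc and 57.6, 51.5 and 57.7 FPKM in sh-IUR1. PDHB, the beta subunit of the decarboxylase, was at 30.1, 30.6 and 30.1 FPKM in sh-luc and 29.9, 29.1 and 29.9 FPKM in sh-IUR1. In both genes all sh-IUR1 libraries were below all sh-luc libraries, but by margins of only 0.20 and 0.19 FPKM between the nearest ones. Neither difference passed the test (DLAT log2 fold change -0.095, SE 0.0666, adjusted p = 0.930, PDHB log2 fold change -0.029, SE 0.0578, adjusted p = 0.954). PDHA1, the alpha subunit, was at 85.0, 77.8 and 81.8 FPKM in sh-luc and 76.8, 79.8 and 76.6 FPKM in sh-IUR1, and DLD, the dihydrolipoyl dehydrogenase that this complex shares with the 2-oxoglutarate complex, at 50.3, 49.5 and 44.5 FPKM in sh-luc and 48.6, 43.5 and 48.4 FPKM in sh-IUR1. The log2 fold change of DLAT was -0.061 with the unnumbered sh-luc library omitted and -0.041 with sh-IUR1 r1 omitted, and that of PDHB was -0.017 with sh-IUR1 r1 omitted. With sh-IUR1 r2 omitted that of DLAT was -0.12, and with the unnumbered sh-IUR1 library omitted that of PDHB was -0.035. PDHA1 and DLD overlapped between groups, by a single library in the case of PDHA1.

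The mitochondrial pyruvate carrier, which brings pyruvate to the complex, had the same order of groups. Its subunits MPC1 and MPC2 were not members and belonged to a list of 60 other genes of these pathways, of which 45 could be tested. MPC1 was at 80.4, 71.3 and 72.6 FPKM in sh-luc and 68.2, 68.4 and 66.3 FPKM in sh-IUR1, and MPC2 at 101, 89.3 and 93.3 FPKM in sh-luc and 88.5, 87.5 and 86.2 FPKM in sh-IUR1. All sh-IUR1 libraries were below all sh-luc libraries for both, and neither passed the adjusted test (MPC1 log2 fold change -0.14, SE 0.0627, adjusted p = 0.930, MPC2 log2 fold change -0.11, SE 0.0604, adjusted p = 0.930). MPC1, MPC2 and the 4 members of the complex were put side by side after their values were seen, so counts over these 6 genes follow from that choice. Of these 6 genes 4 were apart with all libraries, and those 4 had to stay apart with a library left out. Without the unnumbered sh-luc library no further gene of the 6 was apart. All 6 had log2 fold changes below 0 with all libraries and without that library. The share of all genes that were apart, in either direction, was 7.07% with all libraries and 12.6% without that library. In the lower direction it was 3.03% and 6.17%. Of all 12276 genes 5157 were below 0 with all libraries, and without that library 5810 of 12277 were. Without sh-IUR1 r1, 5 of the 6 were below 0. PDHX, a further gene of the complex on that list, was not among the 6. It was at 19.4, 18.7 and 18.0 FPKM in sh-luc and 20.1, 17.1 and 18.4 FPKM in sh-IUR1. Its groups overlapped, with a log2 fold change of -0.013. The log2 fold changes of MPC1 and MPC2 were -0.089 and -0.062 with the unnumbered sh-luc library omitted, and -0.17 and -0.15 with sh-luc r1 omitted. The next genes of the list by p-value were PDK4, a kinase that inhibits the complex, at 3.87, 6.34 and 6.11 FPKM in sh-luc and 7.69, 8.01 and 5.24 FPKM in sh-IUR1, and PRPS2, which makes phosphoribosyl pyrophosphate, at 39.9, 30.7 and 30.5 FPKM in sh-luc and 28.9, 26.0 and 32.7 FPKM in sh-IUR1. Both overlapped between groups, and their log2 fold changes ran from 0.12 to 0.48 and from -0.28 to -0.070 with 1 library omitted at a time, both nearest to 0 with the unnumbered sh-luc library omitted, against 0.31 and -0.19 with all libraries. Of the 45 genes 25 had log2 fold changes above 0 and 20 below, with a median of 0.012, 0 passed the adjusted test, 1 passed at an unadjusted p under 0.05 (MPC1, or 2.22%, against 2.65% of all genes), 1 was apart in the higher direction and 3 in the lower (8.89% together, against 7.07%).

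The 14 genes of the TCA cycle had overlapping groups without exception, 6 with log2 fold changes above 0 and 8 below, and a median of -0.0085. Citrate synthase, CS, which lets acetyl-CoA into the cycle, was at 153, 163 and 168 FPKM in sh-luc and 162, 169 and 154 FPKM in sh-IUR1. The 3 subunits of the NAD-dependent isocitrate dehydrogenase were steady, IDH3A at 22.7 to 25.7 FPKM, IDH3B at 93.5 to 99.4 FPKM and IDH3G at 70.5 to 74.8 FPKM. The NADP-dependent forms varied more between libraries. The cytosolic IDH1 was at 18.6, 24.7 and 21.8 FPKM in sh-luc and 24.4, 26.0 and 19.4 FPKM in sh-IUR1, and the mitochondrial IDH2 at 48.9, 58.1 and 54.1 FPKM in sh-luc and 56.6, 62.3 and 54.2 FPKM in sh-IUR1. The unnumbered sh-luc library was lowest and sh-IUR1 r1 highest for both.

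Further along the cycle, OGDH and DLST, components of the 2-oxoglutarate dehydrogenase complex, ranged from 17.0 to 19.7 FPKM and from 40.7 to 47.5 FPKM. The succinyl-CoA synthetase subunits SUCLG1, SUCLA2 and SUCLG2 were at 68.2 to 73.2 FPKM, 12.4 to 15.3 FPKM and 19.6 to 24.0 FPKM. SUCLG1, the subunit common to both forms of the enzyme, had the same mean in both groups, 70.7 FPKM. Fumarase, FH, was at 112, 109 and 112 FPKM in sh-luc and 114, 109 and 109 FPKM in sh-IUR1. The mitochondrial malate dehydrogenase MDH2 was the most abundant member of the cycle, at 445, 461 and 475 FPKM in sh-luc and 455, 471 and 439.7 FPKM in sh-IUR1, and its cytosolic form MDH1 was at 99.2 to 115 FPKM. The 18 members of pyruvate oxidation and the TCA cycle, IDH1 and MDH1 included, summed to 1499 ± 12.4 FPKM in sh-luc and 1488 ± 27.6 FPKM in sh-IUR1, and the 23 glycolysis members to 8222 ± 319 FPKM in sh-luc and 8241 ± 97.7 FPKM in sh-IUR1, in both cases within the spread of the libraries.

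Isoform balance was measured as the ratio of 2 members in the same library, which does not depend on how that library was scaled. Over 12 pairs, 0 differed between the groups after adjustment (two-sided exact permutation test, adjusted p at least 0.873), and with 3 libraries against 3 this test cannot give a p below 0.1. The ratio ENO2/ENO1 was 0.00416, 0.00414 and 0.00351 in the sh-luc libraries and 0.00458, 0.00464 and 0.00471 in those of sh-IUR1. It was the pair whose groups did not overlap, with a ratio of geometric means of 1.18 (log2 difference 0.24, exact p = 0.1, the smallest possible). As a share, ENO2 was 0.392% ± 0.0365 of enolase FPKM in sh-luc and 0.462% ± 0.00623 in sh-IUR1 (SD, n = 3).

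Phosphofructokinase was mainly PFKL in both groups, at 57.1% ± 2.03 of the FPKM of its 3 genes in sh-luc and 59.7% ± 2.20 in sh-IUR1. The ratio PFKL/PFKP was 2.18, 2.68 and 2.49 in the sh-luc libraries and 2.94, 3.11 and 2.36 in those of sh-IUR1 (log2 difference 0.19, exact p = 0.3), with sh-IUR1 r2 inside the range of sh-luc. Its log2 difference ranged from 0.11, with the unnumbered sh-luc library omitted, to 0.31, with sh-IUR1 r2 omitted. PFKM/PFKP had a log2 difference of 0.064 (exact p = 0.6). The share of PFKM was 19.9%, 19.1% and 19.6% in the control libraries and 19.1%, 18.7% and 18.4% in the knockdown libraries. These shares did not overlap when read to more digits (19.11% against 19.06%), and they were outside the pairs tested.

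HK2/HK1 was 0.10, 0.0791 and 0.0836 in the sh-luc libraries and 0.0742, 0.0713 and 0.0852 in those of sh-IUR1 (log2 difference -0.19, exact p = 0.3), with the unnumbered sh-luc library highest, and the log2 difference was -0.085 when that library was omitted. PFKFB4/PFKFB3 was 0.706, 0.704 and 0.504 in the sh-luc libraries and 0.771, 0.643 and 0.912 in those of sh-IUR1, with sh-IUR1 r1 below the unnumbered and r1 libraries of sh-luc (log2 difference 0.28, exact p = 0.4). Its log2 difference ranged from 0.12, with sh-luc r2 omitted, to 0.41, with sh-IUR1 r1 omitted. LDHB/LDHA was close to 1 and tight, at 0.896, 0.940 and 0.895 in the sh-luc libraries and 0.969, 0.909 and 0.914 in those of sh-IUR1 (log2 difference 0.031, exact p = 0.5), so LDHA was 50.8% to 52.8% of lactate dehydrogenase FPKM in every library. SLC2A3/SLC2A1 was 0.802, 1.06 and 0.841 in the sh-luc libraries and 0.904, 0.965 and 0.958 in those of sh-IUR1 (log2 difference 0.076, exact p = 0.6).

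Several balances were lopsided and alike in both groups. ALDOA was 98.3% to 98.6% of the FPKM of the 2 aldolase genes, and SLC16A1 was 99.1% to 99.5% of that of the 2 lactate transporters. The log2 differences were 0.048 for ALDOC/ALDOA (exact p = 0.7) and 0.05 for SLC16A3/SLC16A1 (exact p = 0.8). In the TCA cycle IDH2/IDH1 ranged from 2.32 to 2.80 over the libraries (log2 difference 0.0072, exact p = 1.0), SUCLA2/SUCLG2 from 0.595 to 0.651 (log2 difference 0.041, exact p = 0.4) and MDH2/MDH1 from 3.87 to 4.79 (log2 difference -0.05, exact p = 0.8). The signs of 5 ratios turned when a library was left out, those of SLC2A3/SLC2A1, SLC16A3/SLC16A1, ALDOC/ALDOA, IDH2/IDH1 and MDH2/MDH1.

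**Figure D3:**
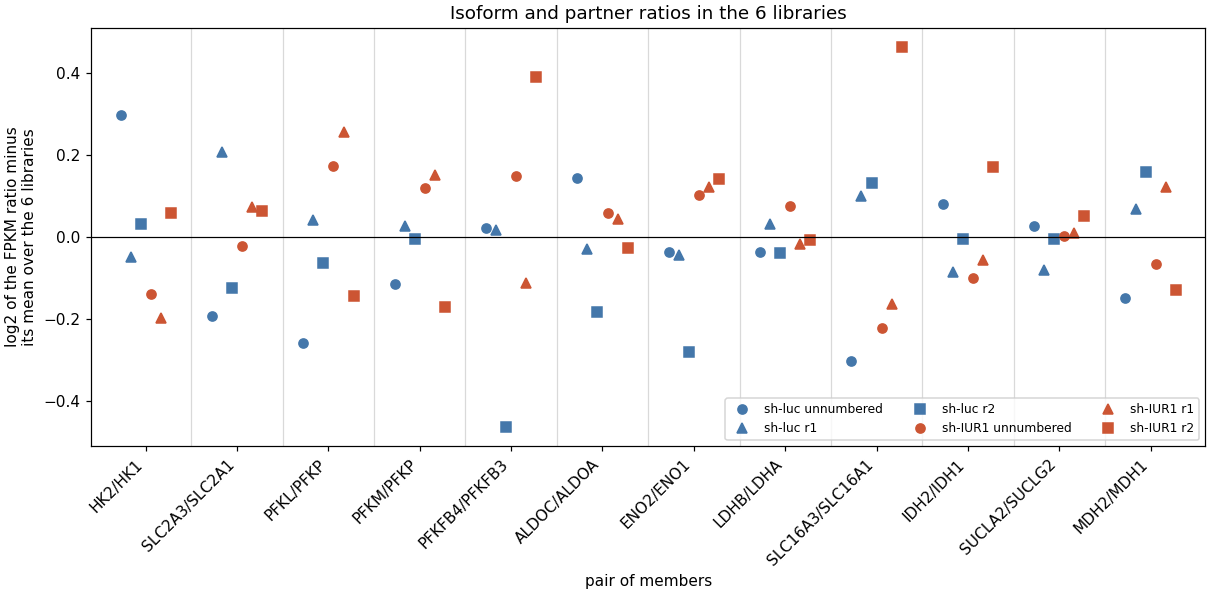
Log2 of the FPKM ratio of each of 12 pairs of members (x axis) in each library, minus the mean of that pair over the 6 libraries (y axis). The red sh-IUR1 points of ENO2/ENO1 all lie above the blue sh-luc points, while in the other 11 pairs the groups overlap.

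The members varied between libraries in ways that cut across the groups. The unnumbered sh-luc library had the highest or the lowest value of 31 of the 47 members (highest in 19, lowest in 12). This was 66.0%, close to 62.5% over all genes and 67.5% over genes of at least 10 FPKM. In 25 members sh-IUR1 r1 had the highest or lowest value, and the share of this over all genes was not worked out. In 13 members the unnumbered sh-luc library was highest and sh-IUR1 r1 lowest (27.7%, against 12.9% of all genes and 17.8% of genes of at least 10 FPKM). These were HK2, PGK1, PGAM1, LDHA, LDHB and SLC16A1 of glycolysis, RPIA and RPE of the pentose phosphate pathway, and DLAT, DLD, IDH3A, SUCLA2 and SUCLG2 of pyruvate oxidation and the TCA cycle. The reverse order was seen in 6 members, SLC2A3, PFKL, PGLS, CS, IDH1 and IDH2 (12.8%, against 18.3% of all genes and 20.3% of genes of at least 10 FPKM).

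A list of 22 genes of the integrated stress response (targets of ATF4, a factor that is induced by amino acid shortage and other stresses) also differed between these libraries. Its mean log2(FPKM + 1) was 5.34, 6.30 and 6.14 in the sh-luc libraries and 6.34, 6.51 and 6.01 in those of sh-IUR1, lowest in the unnumbered sh-luc library and highest in sh-IUR1 r1. With all libraries, the 22 genes had log2 fold changes above 0, with a median of 0.35. None of them then passed at an unadjusted p under 0.05 or had groups that did not overlap. With the unnumbered sh-luc library omitted, 21 of the 22 were above 0 and their median was 0.057, and with sh-IUR1 r1 omitted the median was 0.23. Other omissions raised it. With sh-luc r1 omitted the median was 0.54, and 16 of the 22 had an unadjusted limma p under 0.05 (6.96% of all genes did). With sh-IUR1 r2 omitted it was 0.51, and 17 of the 22 were apart in the higher direction (77.3%, against 15.0% of all genes). The part of this difference between libraries in the values of PFKL, PGLS and DLAT was not tested. ENO2 did not have this order, and its lowest library was sh-luc r2.

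**Figure D4:**
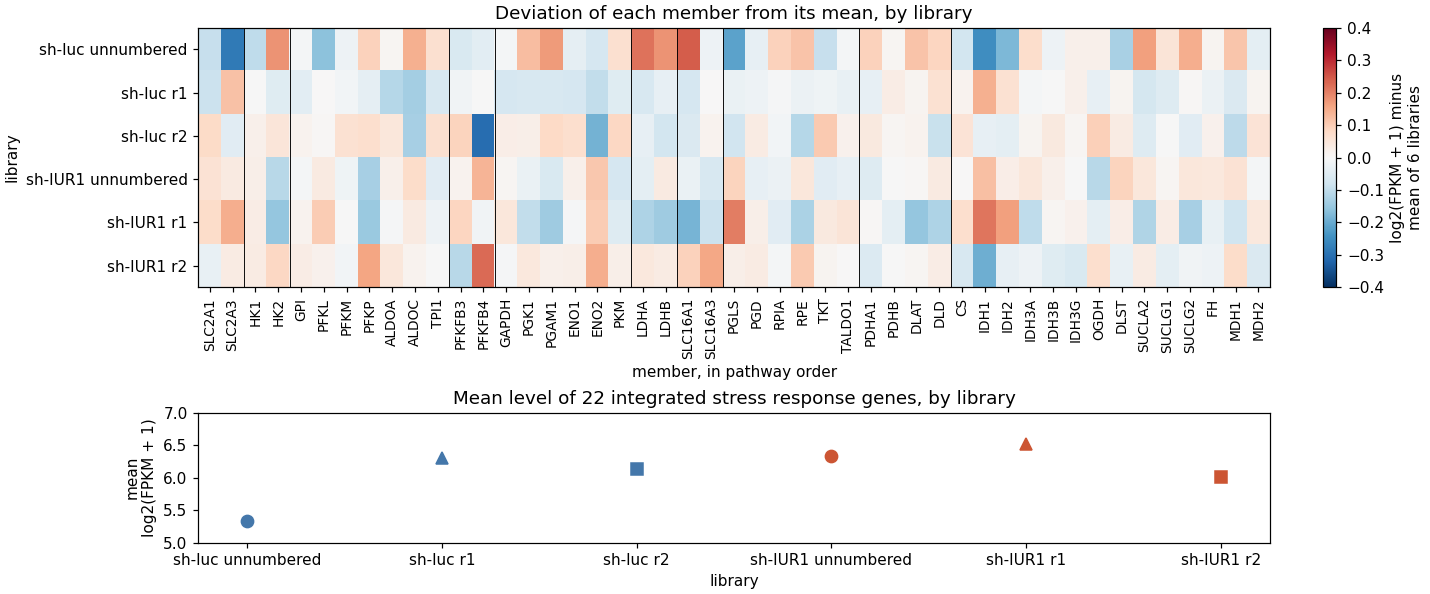
Top, log2(FPKM + 1) of each member minus its mean over the 6 libraries (color, red above and blue below), with libraries as rows and members as columns in pathway order. Bottom, the mean log2(FPKM + 1) of 22 stress response genes in the same libraries. The strongest colors are in the unnumbered sh-luc library, which is also lowest below, at 5.34, and in sh-IUR1 r1, which is highest, at 6.51.

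Over the 6 libraries the spread of the members was below that of all genes and near that of genes of at least 10 FPKM. The coefficient of variation over the 6 libraries had a median of 5.6%, against 8.46% over all genes and 6.35% over genes of at least 10 FPKM. It was below 10% in 40 of the 47 (85.1%), against 60.3% of all genes and 81.4% of genes of at least 10 FPKM. Those genes had a median level of 28.4 FPKM, against 58.5 FPKM for the members, so the levels were not matched. The median absolute log2 fold change of the members was 0.049, against 0.062 over all genes and 0.057 over genes of at least 10 FPKM.

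Of the members, 20 belong to the glycolytic genes known to be induced by hypoxia. Of these 12 had log2 fold changes above 0 and 8 below, with a median of 0.025. Over all 12276 genes tested 7119 were above 0 and 5157 below. In the higher direction 3 of the 20 were apart (15.0%, against 4.04% of all genes). At an unadjusted p under 0.05, 1 of the 20 passed (ENO2), against 2.65% of all genes. Among 21 tested genes induced by hypoxia that are not glycolytic, 15 were above 0 and 6 below, with a median of 0.094, and 0 passed the adjusted test. At an unadjusted p under 0.05, 1 of the 21 passed (NDRG1), against 2.65% of all genes. NDRG1, a stress-induced gene, was at 0.830, 0.990 and 0.970 FPKM in sh-luc and 1.30, 1.28 and 1.14 FPKM in sh-IUR1 (log2 fold change 0.22, SE 0.0780, adjusted p = 0.930). EGLN3, a prolyl hydroxylase that acts on HIF, was at 4.0, 3.56 and 3.72 FPKM in sh-luc and 4.57, 4.12 and 4.47 FPKM in sh-IUR1 (log2 fold change 0.18, SE 0.0817, adjusted p = 0.930). Both were apart in the higher direction, 2 of the 21 (9.52%, against 4.04% of all genes). VEGFA and P4HA1, the next by p-value, overlapped between groups, with log2 fold changes of 0.30 and 0.16. VEGFA was at 47.2, 78.4 and 70.1 FPKM in sh-luc and 81.9, 86.4 and 69.0 FPKM in sh-IUR1. Its log2 fold change was 0.086 with the unnumbered sh-luc library omitted and 0.45 with sh-luc r1 omitted. That of P4HA1 was 0.078 with sh-luc r2 omitted and 0.20 with sh-IUR1 r1 omitted. The median of the 21 genes was 0.059 with the unnumbered sh-luc library omitted and 0.11 with sh-luc r1 omitted. In the latter case 3 of them had an unadjusted limma p under 0.05, as had 6.96% of all genes. With sh-IUR1 r1 omitted, 18 were above 0 and 3 below. Of the 21, 5 were then apart in the higher direction (23.8%, against 8.21% of all genes) and 0 in the lower.

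The identity of the cells was checked with markers. All 14 erythroid genes typical of K562 were listed, led by the globin HBG2. Their summed level ranged from 6554 to 8213 FPKM over the libraries, 13 of the 14 had log2 fold changes below 0 with a median of -0.081, and 0 passed at an unadjusted p under 0.05. Without the unnumbered sh-luc library, 10 of the 14 were below 0, with a median of -0.036. Without sh-luc r1 all 14 were below 0, with a median of -0.16. In that setting 3 had an unadjusted limma p under 0.05 (6.96% of all genes did), and 5 were apart in the lower direction (35.7%, against 8.47% of all genes). Of 7 lymphoid markers 3 could be tested, and the listed ones summed to 4.49 to 6.39 FPKM. The monocyte markers CD14, CSF1R and CD163 were not listed, while LYZ made up nearly all of the 107 to 119 FPKM of that list. Of the fibroblast and epithelial markers KRT8, KRT18 and EPCAM were expressed, and COL1A2 and DCN were not listed. Summed FPKM ranged from 579820 to 606240 over the libraries, and Pearson correlations between libraries across genes from 0.991 to 0.998.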

How the data were processed

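Total RNA of 3 sh-luc and 3 sh-IUR1 libraries had been sequenced. The authors trimmed and masked the reads, mapped them to hg38 and computed values with SAMtools 0.1.19, as given in their methods and processing notes; the aligner and annotation are not given in the sources used here. The deposited values are headed FPKM, while the methods name RPKM, so whether fragments or reads were counted is unsure. They have 2 decimals, and the deposited score beside each is its z-score over the 6 libraries, which was not used. Genes with an SD under about 0.0501 FPKM are not listed. The number of fragments behind each value was not worked out, so FPKM carries no counting error here and no count model was used.

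Symbols came from RefSeq GRCh38.p14 (12363 of 12486 identifiers matched). On the log2(FPKM + 1) scale, limma 3.58.1 (R 4.3.3; lmFit, eBayes with trend, two-sided) was run on the 12276 genes whose mean reached 0.1 FPKM, with Benjamini-Hochberg adjustment over all of them and a threshold of 0.05. Fold changes on this scale understate low genes. Isoform ratios were compared with exact permutation tests over 12 pairs. Nothing beyond the study's statement of independent groups of cells describes the replicates, and p-values refer to these libraries only. The eBayes step also moderates the variance of each gene with that of other genes. The limma SEs, intervals and p-values of a gene whose libraries lie close together are therefore not set by its own spread alone.

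The members, lists and pairs were chosen with earlier results of these data known. Tests are printed for members with an unadjusted p under 0.05 or with groups that do not overlap (mean of at least 1 FPKM), then for those of smallest p until 10 were named, and for at most 4 genes of each other list, except where the text says otherwise. Alternatives were each library left out, quantile or median-ratio scaling, a filter at 1 FPKM or none, 0.1 as the pseudocount, a replicate block, eBayes without trend, an unmoderated linear model, and ratios of FPKM + 1. Python 3.11.15, numpy 2.4.6, pandas 2.3.3 and matplotlib 3.10.9 were used.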

Additional observations from a re-analysis of the deposited data

How the results depend on the processing

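Each of the 10 named members kept the direction of its log2 fold change in all 130 refitted values (10 genes by 13 alternatives). Many of these could not have turned, since the filter, the trend and the block leave a fold change as it is. For the members whose groups do not overlap, leaving a library out cannot turn the sign either. Under any scaling, filter, pseudocount or left-out library tried, 0 genes passed the adjusted test. With an unmoderated model and unadjusted p-values 344 genes passed, and 1 member did, against 2 members with the moderated test. With each library left out in turn, 2 to 5 members passed at an unadjusted p under 0.05 and 156 to 854 of all genes did. Under the same settings 7 to 13 members had groups that did not overlap, with the most without sh-luc r1 (13, or 27.7%, against 22% of all genes), and 12 without sh-luc r2 or without sh-IUR1 r2 (25.5%, against 14.2% and 25.1% of all genes). A 2 against 3 comparison overlaps less often by construction. The median log2 fold change was 0.038 for glycolysis members under quantile normalization and -0.0049 to 0.035 with a library left out. For the members of pyruvate oxidation and the TCA cycle it was -0.042 under median-ratio scaling and -0.027 to -0.0021 with a library left out. These scalings moved the median of all genes by -0.019 (median-ratio) and -0.026 (quantile). The log2 isoform ratios that changed sign ranged, with a library left out, from -0.0025 to 0.20 for SLC2A3/SLC2A1, from -0.17 to 0.17 for SLC16A3/SLC16A1, from -0.076 to 0.060 for IDH2/IDH1, from -0.032 to 0.13 for ALDOC/ALDOA and from -0.14 to 0.017 for MDH2/MDH1. The log2 differences of the other 7 pairs kept their sign with each library left out, and ranged from -0.26 to -0.085 for HK2/HK1, from 0.11 to 0.31 for PFKL/PFKP, from 0.12 to 0.41 for PFKFB4/PFKFB3, from 0.16 to 0.28 for ENO2/ENO1, from 0.0056 to 0.17 for PFKM/PFKP, from 0.0020 to 0.054 for LDHB/LDHA and from 0.011 to 0.064 for SUCLA2/SUCLG2. For ENO2/ENO1, whose groups do not overlap, leaving a library out could not turn the sign. The cause of the changes of sign was not tested.

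Whether the replicate numbers pair the samples could not be told. Deviations from the group means correlated between same-numbered libraries at 0.044 (unnumbered), 0.39 (r1) and -0.34 (r2). With 3 libraries per group these deviations are not independent of each other, so the correlations cannot exclude pairing. With the replicate number as a block 0 genes passed the adjusted test, 533 instead of 325 passed at an unadjusted p under 0.05, and 2 members did. Intervals rest on 3 libraries per group and on variances moderated across genes. The depth behind low values such as those of SLC16A3 was not worked out.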
